A study of Canis lupus familiaris with 6 samples.

Results

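Beta-tricalcium phosphate (beta-TCP), a resorbable ceramic used as a bone substitute, was compared with an empty drilled hole in the dog mandible after 4 days. The comparison used 2 of the 6 arrays of the series, the beta-TCP array and the control array of day 4, which were taken by their labels. The other 4 arrays were a beta-TCP and a control array at day 7 and at day 14. All specimens came from beagle dogs aged 9 years, in which premolars had been extracted and the mandible had healed for 3 months. Holes of 4.5 mm diameter and 8 mm length were then drilled, and they were implanted with beta-TCP or left without it. Cylinders of the same size were collected, and 100 ng of total RNA from each went to an Affymetrix canine expression array. Each group had 1 array, so no difference below has a replicate check, a standard error or a p-value. The sources used here do not say how many animals there were or which specimens shared one, so animal and treatment cannot be told apart.

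A hole drilled in bone first fills with a blood clot, which neutrophils and then macrophages enter. Granulation tissue replaces the clot: fibroblasts, new capillaries and their pericytes lay down a provisional matrix of collagens, fibronectin and small proteoglycans. Osteoprogenitor cells within that tissue later make osteoid and mineralize it, while osteoclasts remodel it and can also resorb calcium phosphate ceramics. A mandibular site lies under stratified oral epithelium, which closes the wound above the hole and is not part of the bone.

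Values are levels, meaning the deposited value divided by that array's median over all 42860 probe sets, so a level of 1 is the median probe set. A difference is log2(level + 1) on the beta-TCP array minus the same on the control array, which understates differences of weakly expressed genes. The brightest probe set stood for a gene, and 10550 of 15153 genes on the array passed the filter on low values. Across all 42860 probe sets, the day 4 arrays correlated at a Spearman rho of 0.896. The beta-TCP day 14 array stood farthest from both, at 0.743 with the beta-TCP day 4 array and 0.723 with the control day 4 array. In these bulk specimens, fewer cells of a type and less RNA per cell cannot be told apart.

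At day 4, 476 of 10550 genes were at least 2-fold higher with beta-TCP (4.51%) and 326 were at least 2-fold lower (3.09%). The median difference over all genes was 0.17, with 6608 genes above 0 and 3942 below. Which direction held more genes depended on the scaling. Measured from the median of all genes, the counts were 241 higher and 532 lower, with quantile normalization 310 and 491, and with division by the 90th percentile 236 and 588. The median difference also went with the level of a gene: in 10 equal classes of mean expression it lay between -0.04 and 0.01 in the 3 lowest and between 0.30 and 0.40 in the 4 highest. Centred within these classes, a choice made after the values were seen, 190 genes were higher and 575 lower. Single genes and lists are therefore best read against 0.17, or against the median of genes of like level where that is given.

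**Figure D1:**
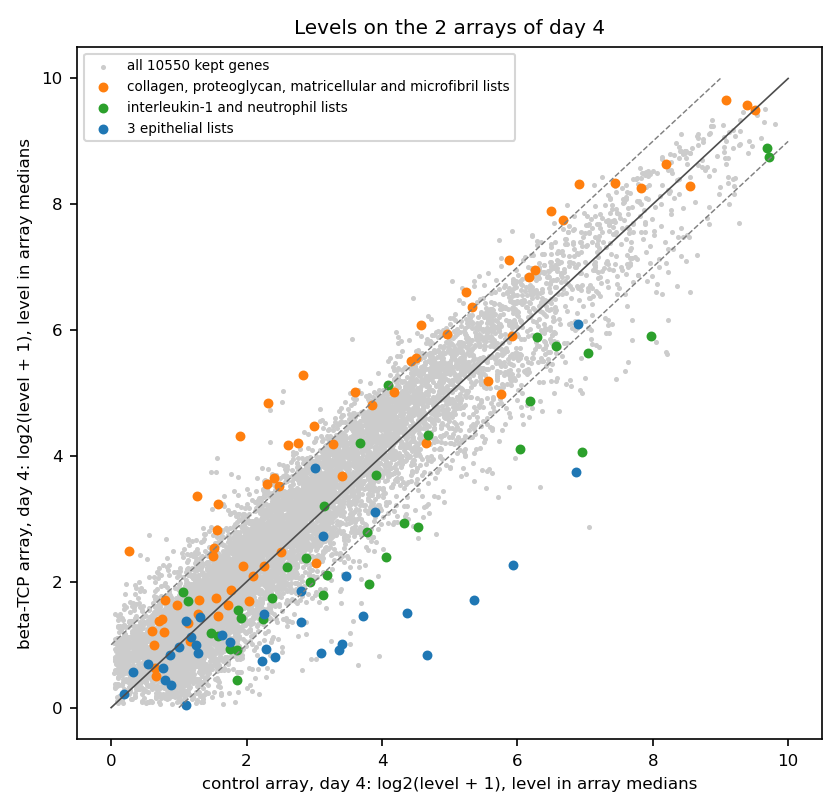
Levels on both arrays of day 4, as log2(level + 1), for all 10550 kept genes (grey) and the genes of 3 groups of lists. The solid line marks equal levels and the dashed lines a difference of 1 log2 unit. Genes of the matrix lists lie mostly above the line, and the interleukin-1, neutrophil and epithelial genes mostly below it.

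The genes highest with beta-TCP at day 4 were led by matrix genes of bone and periosteum. The small leucine-rich proteoglycan asporin (ASPN), which binds collagen, had a level of 27.7 with beta-TCP and 3.98 in the control, a difference of 2.52. Bone sialoprotein (IBSP), a mineral-binding glycoprotein of osteoblasts, had 31.9 and 4.80 in the same order, a difference of 2.50. Osteomodulin (OMD), a proteoglycan of mineralized matrix, had 38.2 with beta-TCP and 6.16 in the control, a difference of 2.45. Each of these genes was read by 1 probe set above the filter. Periostin (POSTN), which links collagen to the cells of periosteum and ligament, had 19.0 with beta-TCP and 2.73 in the control (2.42). Tenascin N (TNN), a matrix glycoprotein found in osteogenic tissue, had 4.64 with beta-TCP and 0.198 in the control (2.24), so its control level lay well under the median probe set. SMOC2, a calcium-binding matrix protein, had 9.35 with beta-TCP and 1.42 in the control (2.10), and its other probe sets lay at 1.26 or above. Matrix genes thus took the first 4 places, and all 6 of these genes lay more than 2 log2 units above the control.

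Secreted factors and receptors followed. Pleiotrophin (PTN), a heparin-binding growth factor made by osteoprogenitors, had a level of 56.8 with beta-TCP and 10.7 in the control (2.30), and the weakest of its other probe sets gave 1.5. The secreted Wnt modulator SFRP2 had 89.8 with beta-TCP and 21.0 in the control (2.05), and its weakest probe set gave 1.02. The adhesion molecule VCAM1, present on activated endothelium and stromal cells, had 12.4 with beta-TCP and 1.77 in the control (2.27), with 0.81 on its other probe set. All of these probe sets lay on the side of beta-TCP. The antiangiogenic serpin gene SERPINF1 had 171 with beta-TCP and 52.1 in the control (1.70), and its other probe set gave 2.01. OLFML2B, an olfactomedin-like extracellular protein, had 109 with beta-TCP and 31.8 in the control (1.75), and its other probe set gave 2.25. For these genes the brightest probe set gave the smaller value. The difference of C1S, a protease of the classical complement pathway, rested on 1 probe set: it had 25.5 with beta-TCP and 4.10 in the control (2.38), but another probe set gave only 0.02. Lipoprotein lipase (LPL) had 14.6 with beta-TCP and 1.97 in the control (2.39).

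The remaining genes among the 30 highest had differences of 1.65 to 2.34. They included RGS5 (1.73), a regulator of G protein signalling known from pericytes, and PDGFRL (1.76) and SCUBE3 (1.79), which encode a receptor-like protein and a secreted signalling protein. The proteins of RCN1 (1.65) and P3H4 (1.66) lie in the endoplasmic reticulum, and P3H4 takes part in collagen modification. COL6A1, a chain of the beaded microfibrillar collagen VI, closed the group at 1.65. Of these 30 genes, 16 passed the filter on more than 1 probe set, and in all 16 each probe set lay on the side of beta-TCP. In 8 of the 16 every probe set was at least 2-fold higher. In the control, 6 of the 30 had a level under 1. Only 8 of the 30 belonged to the matrix, osteoblast and fibroblast lists, and 17 belonged to no list used here.

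**Figure D2:**
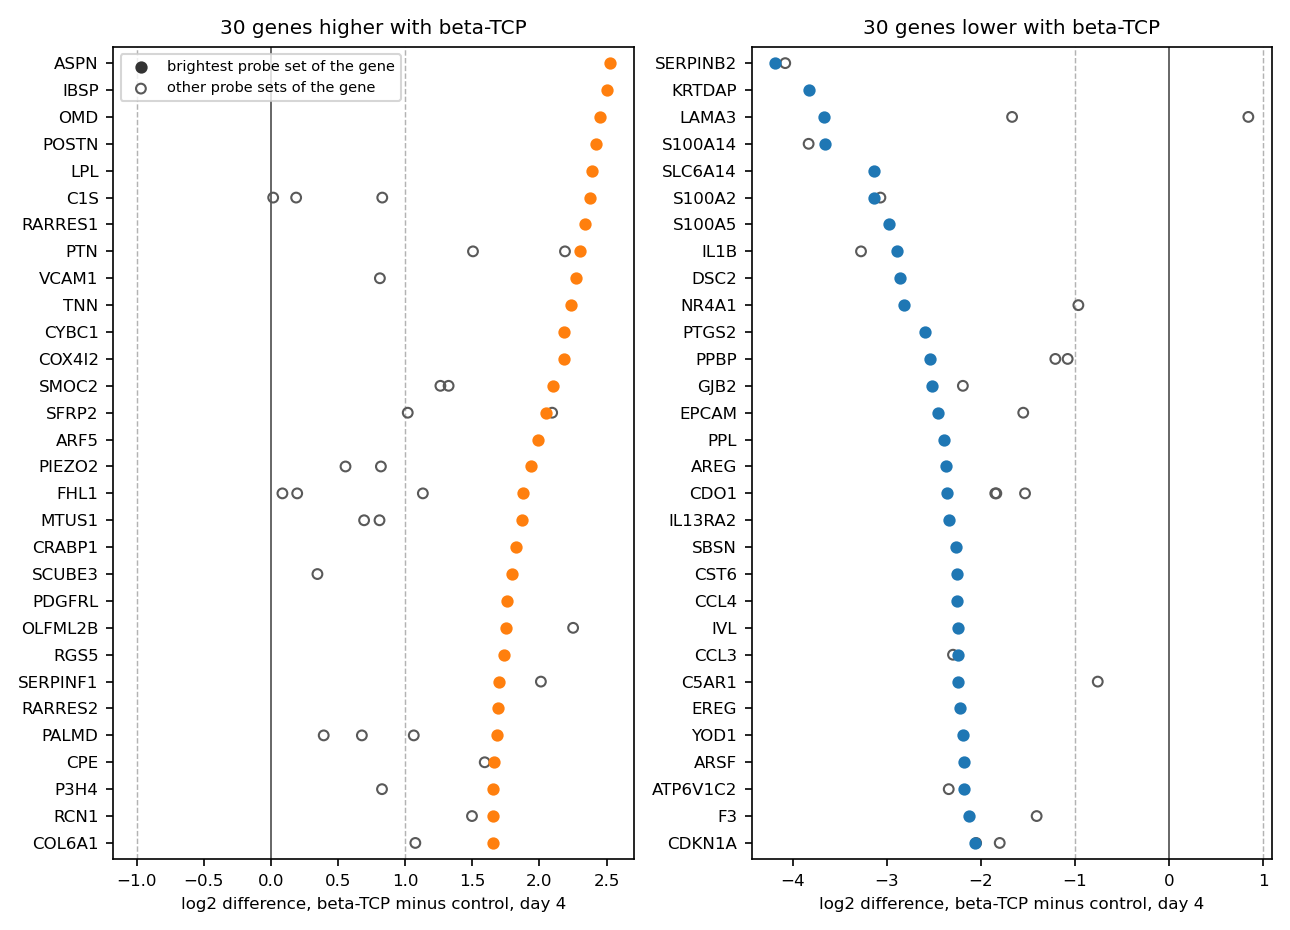
Log2 difference, beta-TCP minus control at day 4, of the 30 genes highest and the 30 lowest with beta-TCP. Filled points are the brightest probe set of each gene and open circles its other probe sets above the filter, and dashed lines mark 2-fold. Every open circle of the higher genes lies above 0, and on the lower side only LAMA3 has one across 0, at 0.84.

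The genes lowest with beta-TCP combined genes of stratified epithelium with genes of acute inflammation. SERPINB2, a plasminogen activator inhibitor made by activated macrophages and keratinocytes, had a level of 6.35 with beta-TCP and 133 in the control, a difference of -4.18. Its other probe set gave -4.08. The cytokine gene IL1B had 15.8 with beta-TCP and 123 in the control (-2.89), and its other probe set gave -3.27. Cyclooxygenase-2 (PTGS2), which makes prostaglandin precursors in inflamed tissue, had 48.0 with beta-TCP and 294 in the control (-2.59). These genes were bright in the control, so the values lie far above the filter. PPBP, a chemokine stored in platelets, had 49.4 with beta-TCP and 292 in the control (-2.54), and its weakest probe set gave -1.08. The macrophage chemokine genes CCL3 and CCL4 gave -2.24 and -2.25. CCL3 had 55.2 with beta-TCP and 265 in the control, and its other probe set gave -2.30. Tissue factor (F3), the starter of coagulation, had 44.3 with beta-TCP and 197 in the control (-2.13), with -1.41 on its weakest probe set. C5AR1, the receptor for the complement fragment C5a on neutrophils and macrophages, had 36.3 with beta-TCP and 175 in the control (-2.24), but only -0.76 on its other probe set.

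The immediate early receptor gene NR4A1 had a level of 10.4 with beta-TCP and 79.4 in the control (-2.82), and its other probe set gave -0.96. The cell cycle inhibitor gene CDKN1A had 70.6 with beta-TCP and 298 in the control (-2.06), with -1.80 on its weakest probe set. Ligands of the EGF receptor were low as well: AREG had 10.3 with beta-TCP and 57.6 in the control (-2.37), and EREG had 0.508 with beta-TCP and 6.04 in the control (-2.22). Both ligands are made by epithelium and by myeloid cells. The decoy receptor gene IL13RA2 (-2.34), the transporter gene SLC6A14 (-3.14) and the cysteine dioxygenase gene CDO1 (-2.36) also belonged here. Of the 30 lowest genes, 9 belonged to the epithelial lists, 6 to the immune lists and 10 to no list. Of the 15 with several probe sets, 14 had the same sign on every one. The exception was LAMA3, a laminin chain of the epithelial basement membrane, with 1 probe set on the other side. With beta-TCP, 8 of the 30 had a level under 1.

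Epithelial RNA was higher on the control array of day 4 than on any other array. The labelled tissue is bone, and the epithelial lists hold genes of the basal layer, the upper layers and cell adhesion, of which 65 were on the array and 36 passed the filter. Summed over the 65, the level was 149 with beta-TCP and 518 in the control at day 4. At day 7 the sums were 232 with beta-TCP and 189 in the control, and at day 14 they were 179 and 196 in the same order. The control array of day 4 gave the highest level of the 6 arrays for 25 of the 65 markers, and the beta-TCP array of day 4 for 2. Such peaks were counted for the gene lists only, so the 25 cannot be set against a background share. At day 4, 51 of the 65 were higher in the control. Among the 10550 genes that passed the filter, 3942 had a lower level with beta-TCP, but the 65 include markers that did not pass it. Of the 36 above the filter, 15 were at least 2-fold lower with beta-TCP and 0 higher. Over all genes 3.09% were lower and 4.51% higher. The median over the 36 was -0.78. The filter used the mean of all 6 arrays, so a marker could pass largely through its level in the day 4 control. With no filter the median of the upper-layer list was -0.40 instead of -0.79, and that of the basal list -0.79 instead of -0.88.

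The sum was carried by few markers. The 4 with the largest difference in level, S100A2, LAMA3, ITGA6 and S100A14, taken after their values were seen, together made 85.6 with beta-TCP and 335 in the control, and the other 61 made 63.4 with beta-TCP and 183 in the control. The calcium-binding S100A2 of the basal layer had a level of 12.3 with beta-TCP and 116 in the control (-3.13), and its other probe set gave -3.07. S100A14 had 2.26 with beta-TCP and 40 in the control (-3.66). ITGA6, a hemidesmosome integrin also present on endothelium, differed by -0.81, but its other probe sets lay between -0.13 and 0.19. Markers of differentiated layers pointed the same way at lower levels. KRTDAP, a secreted protein of differentiating keratinocytes, had 0.792 with beta-TCP and 24.3 in the control (-3.82), and involucrin (IVL), a scaffold of the cornified envelope, had 0.818 with beta-TCP and 7.61 in the control (-2.24). Periplakin (PPL, -2.40), desmocollin 2 (DSC2, -2.86), EPCAM (-2.46) and the gap junction gene GJB2 (-2.52) lay lower with beta-TCP too. In each of the 3 epithelial lists 2 genes above the filter lay above 0, named after their values were seen. They were DST (0.78) and COL7A1 (0.27) of the basal list and KRT10 (0.03) and KLK8 (0.15) of the upper layers. In the adhesion list they were CLDN4 (0.24) and PKP1 (0.12). The other probe sets of DST lay between -0.64 and 1.20.

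Several defining keratinocyte genes stood near or below the median probe set on both arrays. The upper-layer keratin gene KRT10 had a level of 0.168 with beta-TCP and 0.143 in the control. The oral keratin gene KRT13 was near 0 with beta-TCP, at 0.0258, and had 1.14 in the control (-1.06). Desmoplakin (DSP) had 0.792 with beta-TCP and 0.822 in the control, and E-cadherin (CDH1), below the filter, had 0.0691 and 0.261 in the same order. The basal keratin genes KRT5 and KRT14 were not analysed here. With the epithelial lists left out, 311 of the 326 genes at least 2-fold lower remained, among them GJB2 (-2.52), which is in none of these lists. Which other lower genes came with the epithelial RNA was not tested.

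**Figure D3:**
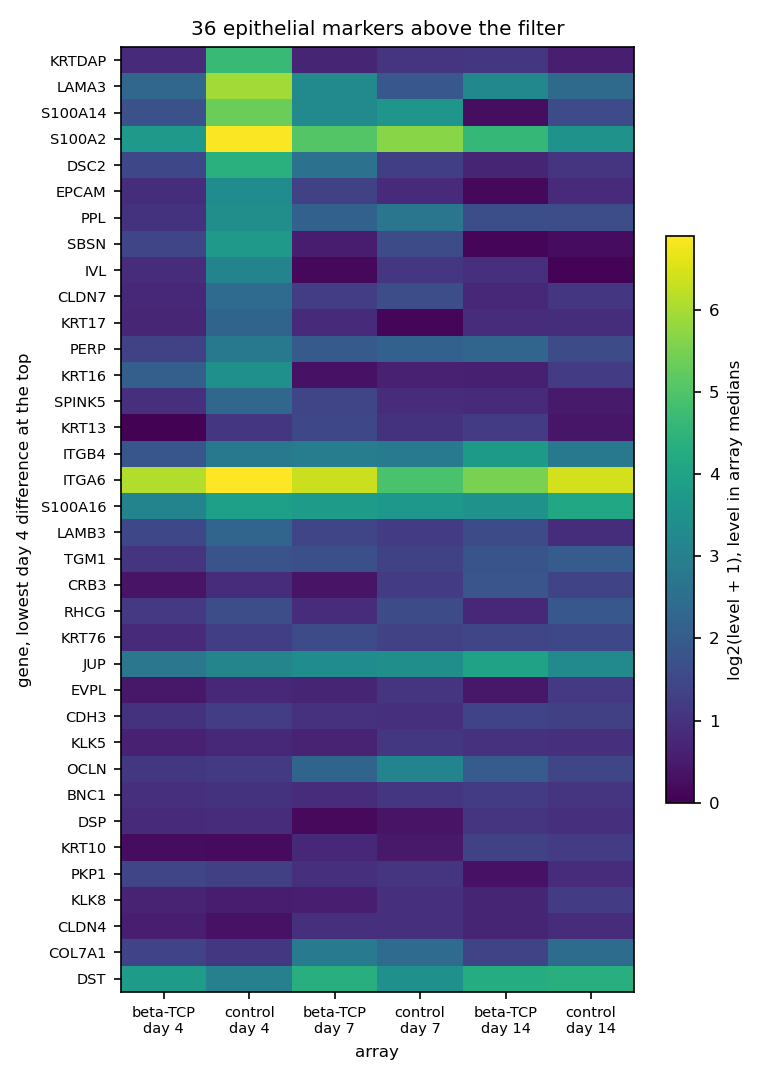
Level of the 36 epithelial markers above the filter on each of the 6 arrays, as log2(level + 1), with beta-TCP left of control within each day. Genes run from the lowest day 4 difference at the top, and most of the upper 15 are brightest in the second column, the control of day 4.

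All lists of connective tissue matrix had a median above that of all genes. The small leucine-rich proteoglycans had the highest median of all 39 lists, at 1.05 over 9 genes. Of these, 5 were at least 2-fold higher (55.6%, against 4.51% of all genes) and 0 lower. Beside ASPN and OMD, osteoglycin (OGN) had a level of 17.5 with beta-TCP and 5.77 in the control (1.45), and decorin (DCN), which organizes collagen fibrils, had 317 with beta-TCP and 119 in the control (1.41). The collagen list had a median of 0.68 over 15 genes, with 6 at least 2-fold higher (40%) and 0 lower. The basement membrane chain gene COL4A2 had 67.1 with beta-TCP and 22.7 in the control (1.52). COL4A1, its partner chain, had 235 with beta-TCP and 89.6 in the control (1.38), and its other probe sets gave 1.5 and 1.89. The fibril-associated collagen gene COL16A1 gave 1.48. On its brightest probe set the main chain of bone and skin collagen, COL1A1, was near equal, at 720 with beta-TCP and 732 in the control (-0.02).

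Matricellular and adhesion glycoproteins had a median of 0.55 over 20 genes, with 6 at least 2-fold higher (30%). After POSTN, TNN and SMOC2, the link protein gene HAPLN1 gave 1.27, with a level of 6.11 with beta-TCP and 1.94 in the control. The microfibril, elastic fibre and crosslinking list had a median of 0.64 over 22 genes, with 7 at least 2-fold higher (31.8%) and 0 lower. It was led by the fibrillin genes FBN2 (1.56) and FBN1 (1.37) and the fibulin genes EFEMP2 (1.42) and FBLN1 (1.25). FBN1 had 96.8 with beta-TCP and 36.9 in the control. In the list of fibroblast receptors, with a median of 0.72 over 18 genes, 7 were at least 2-fold higher (38.9%). The PDGF receptor gene PDGFRB, found on fibroblasts and pericytes, had 6.22 with beta-TCP and 1.56 in the control (1.5), CD248 gave 1.46, and the mesenchymal cadherin gene CDH11 had 88.6 with beta-TCP and 34.4 in the control (1.34). The share over all 10550 genes was 4.51%.

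Osteoblast genes were mixed. The list had a median of 0.67 over 18 genes, with 5 at least 2-fold higher (27.8%, against 4.51% of all genes) and 0 lower. After IBSP came alkaline phosphatase (ALPL), the enzyme that frees phosphate for mineral, with a level of 6.31 with beta-TCP and 1.79 in the control (1.39). Its other probe set gave 0.01. CADM1 (1.35), CDH11 and the homeobox gene DLX5, a factor of osteoblast differentiation, followed. DLX5 had 3.33 with beta-TCP and 0.995 in the control (1.12). RUNX2, the factor that commits cells to the osteoblast lineage, had 1.36 with beta-TCP and 1.25 in the control (0.07). Osteocalcin (BGLAP), a marker of mature osteoblasts, was low on both arrays, at 0.157 with beta-TCP and 0.755 in the control (-0.60). The osteoblast factor gene SP7 was not analysed here. With probe sets of the Cfa name type alone the median of the list was 0.068, so its size depends on the type of probe set. The median of all genes was not computed for that type, so 0.068 cannot be set against 0.17.

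The 3 signalling lists had medians of 0.25 to 0.61, above that of all genes. The BMP and TGF-beta list had a median of 0.47 over 20 genes, with 3 at least 2-fold higher (15.0%, against 4.51% of all genes). They were the BMP target genes ID1, with a level of 26.1 with beta-TCP and 9.48 in the control (1.37), and ID3 (1.20), and the activin antagonist gene FST (1.09). Wnt modulators had a median of 0.25 over 20 genes, with SFRP2 and DKK3 (1.24) at least 2-fold higher (10% of the list). Growth factors and the IGF axis had a median of 0.61 over 19 genes, with 6 at least 2-fold higher (31.6%). PTN led them. IGFBP2, a binding protein that holds IGF, had 2.02 with beta-TCP and 0.169 in the control (1.37), and GAS6 (1.23) and the stem cell chemoattractant gene CXCL12 (1.21) followed.

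Both vessel lists had a median above that of all genes. Smooth muscle and pericyte genes had a median of 0.93 over 17 genes, with 8 at least 2-fold higher (47.1%, against 4.51% of all genes) and 0 lower. Smooth muscle actin (ACTA2), which pericytes and myofibroblasts share, had a level of 182 with beta-TCP and 73.5 in the control (1.30). Both TPM2 (1.56) and MCAM (1.44) have another probe set with the opposite sign. The 4 genes of the list below 0, named after their values were seen, were the contractile genes CNN1 (-0.51), DES (-0.15) and MYH11 (-0.10), and the pericyte receptor gene NOTCH3 (-0.24). Endothelial genes had a median of 0.68 over 21 genes, with 5 at least 2-fold higher (23.8%) and 1 lower (4.76%, against 3.09% of all genes). KDR, the main VEGF receptor of sprouting capillaries, had 55.7 with beta-TCP and 18.4 in the control (1.55). ANGPT2, a ligand that loosens vessels for sprouting, had 8.47 with beta-TCP and 2.14 in the control (1.59), with 0.34 on its other probe set. The sialomucin gene EMCN (1.27) and ECSCR (1.15) followed. The endothelial cadherin gene CDH5 went the other way, at 0.764 with beta-TCP and 2.79 in the control (-1.10). Also below 0 were ERG (-0.59), MMRN2 (-0.24) and APLNR (-0.13), named after their values were seen. Osteoclast genes had a median of 0.21 over 12 genes, with 0 at least 2-fold different in either direction on the brightest probe set. They were led by CA2 (0.84), which acidifies the resorption pit, and ACP5 (0.65). Other probe sets, named after their values were seen, gave 1.16 and 0.71 for ATP6V0D2, 1.09 for ACP5 and 1.01 for CTSK. Those of CA2 gave -0.48 and 0.85, that of TCIRG1 -0.20 and that of OSTM1 -0.01.

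**Figure D4:**
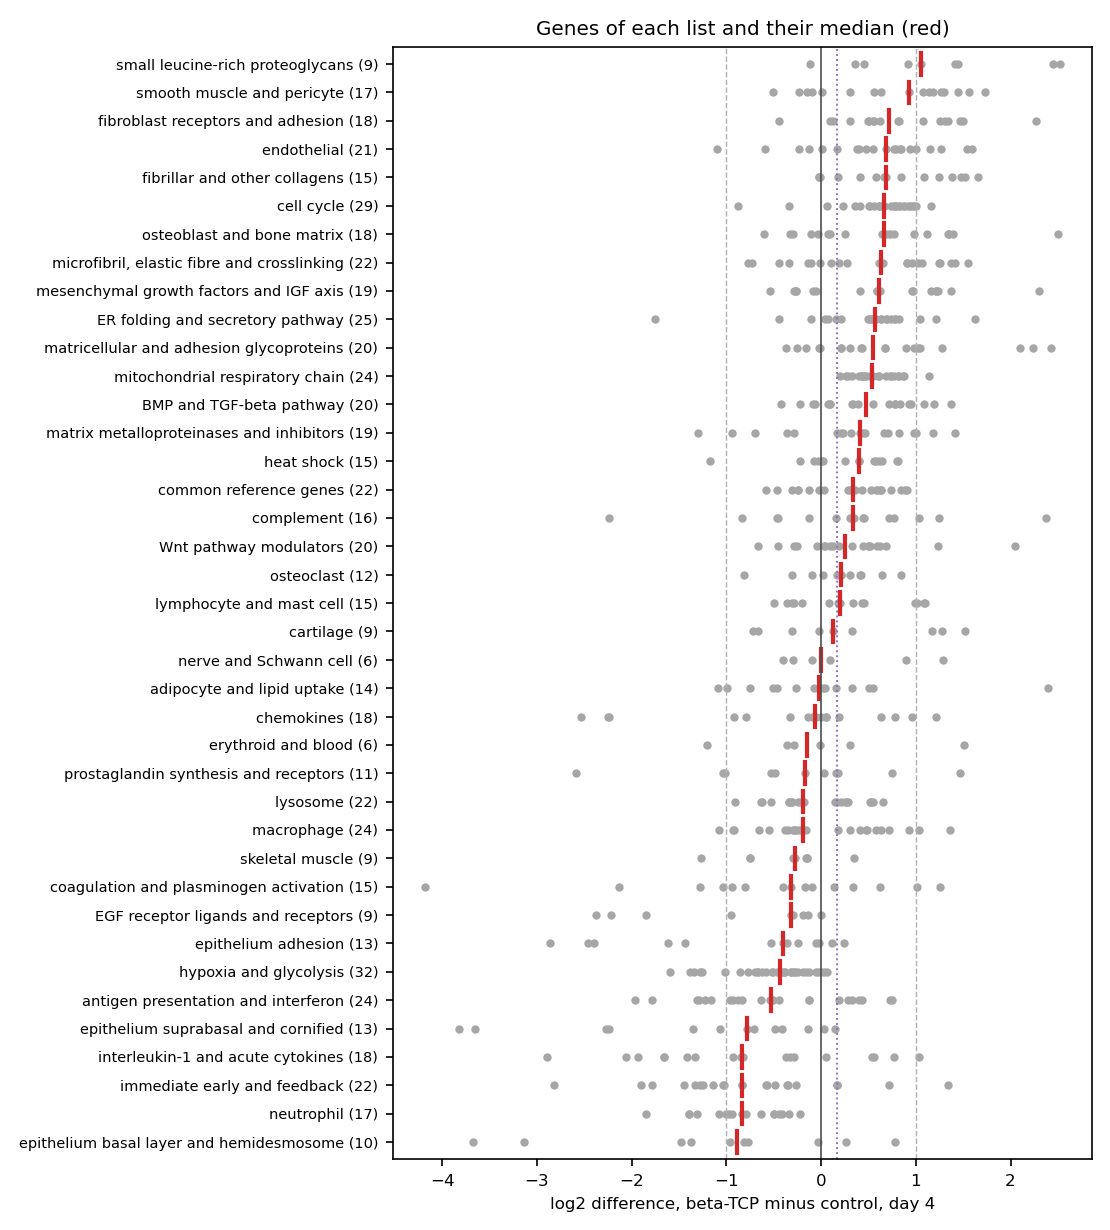
Log2 difference, beta-TCP minus control at day 4, of every gene in each of the 39 lists (grey points, number of kept genes in brackets), with the list median in red. The dotted line marks the median of all genes, 0.17, and the dashed lines 2-fold. Proteoglycan and pericyte lists stand at the top, and basal epithelial, neutrophil, immediate early and interleukin-1 lists at the bottom.

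All 17 neutrophil genes above the filter lay below 0, as did 3942 of all 10550 genes. Their median was -0.84, and 5 were at least 2-fold lower (29.4%, against 3.09% of all genes). PADI4, the enzyme that citrullinates histones in neutrophil traps, had a level of 2.89 with beta-TCP and 13 in the control (-1.84). The activating receptor gene TREM1 had 49.0 with beta-TCP and 131 in the control (-1.40), and lactoferrin (LTF), a granule protein, had 6.63 with beta-TCP and 19.0 in the control (-1.39). The median of the list was -0.41 with Cfa probe sets alone and -0.44 with a pseudocount of 4. Macrophage genes, with a median of -0.19 over 24, split. TLR2 gave -1.08, while apolipoprotein E (APOE, 1.36) and the complement subunit gene C1QC (1.03) were at least 2-fold higher (8.33%, against 4.51% of all genes). On their other probe sets APOE gave 0.05 and C1QC 0.50. The lymphocyte and mast cell list had a median of 0.20 over 15 genes. Its T cell genes CD3D (1.10) and CD2 (1.02) and the antibody joining chain gene JCHAIN (1.08) were at least 2-fold higher (20%, against 4.51% of all genes). Another probe set of CD3D gave 0.36, and those of JCHAIN gave 0.02 and -0.18. Of the 15 genes 5 lay below 0, the lowest being GZMA (-0.50), a protease gene of cytotoxic cells. The summed level of the neutrophil list was 1100 with beta-TCP and 2058 in the control, and that of the macrophage list was 561 and 782 in the same order.

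The interleukin-1 family and other acute cytokines had a median of -0.83 over 18 genes, with 7 at least 2-fold lower (38.9%) and 1 higher (5.56%). Over all genes these shares were 3.09% and 4.51%. The decoy receptor gene IL1R2 had a level of 59.1 with beta-TCP and 249 in the control (-2.06), and its other probe set gave -1.98. IL1A had 16.2 with beta-TCP and 64.8 in the control (-1.94). The receptor antagonist gene IL1RN, also made by keratinocytes, had 6.28 with beta-TCP and 22 in the control (-1.66). The alarmin gene IL33, stored in stromal and endothelial nuclei, stood apart at 34.0 with beta-TCP and 16 in the control (1.04). IL6 and CCL2, named after their values were seen, did not follow IL1B. IL6 had 17.4 with beta-TCP and 11.7 in the control (0.54), and the monocyte chemokine gene CCL2 had 82.1 with beta-TCP and 78.9 in the control (0.06). Chemokines as a list had a median of -0.07 over 18 genes, with PPBP, CCL4 and CCL3 at least 2-fold lower (16.7%) and CXCL12 higher (5.56%). Of the prostaglandin list, with a median of -0.17 over 11, the synthase gene PTGES had 155 with beta-TCP and 315 in the control (-1.02), PTGER2 gave -1.03, and the receptor gene PTGFR gave 1.47.

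Immediate early genes and their feedback inhibitors had a median of -0.83 over 22 genes, with 10 at least 2-fold lower (45.5%) and 1 higher (4.55%). Over all genes 3.09% were lower and 4.51% higher. ZFP36, whose protein destabilizes cytokine mRNAs, had a level of 25.3 with beta-TCP and 97.3 in the control (-1.90), with -0.92 on its other probe set. The transcription factor gene EGR1 had 13.8 with beta-TCP and 39.5 in the control (-1.45), and the kinase gene PLK3 gave -1.78. MYC was the exception, at 11.1 with beta-TCP and 3.79 in the control (1.34). Hypoxia and glycolysis genes had a median of -0.44 over 32 genes. Of these, 29 lay below 0, as did 3942 of all 10550 genes, and 6 were at least 2-fold lower (18.8%). BNIP3 gave -1.60 and ERO1A -1.34. The glucose transporter gene SLC2A3 had 137 with beta-TCP and 358 in the control (-1.38), and SLC2A1 had 17.7 with beta-TCP and 44.3 in the control (-1.27). Interferon and antigen presentation genes had a median of -0.53 over 24, with 6 at least 2-fold lower (25.0%). The interferon-induced genes ISG20 (-1.96), ISG15 (-1.78), RSAD2 (-1.31) and MX1 (-1.28) led them, and ISG15 had 12.6 with beta-TCP and 45.9 in the control. The 7 members above 0 were genes of antigen presentation: CD74 (0.75), PSMB10 (0.73), TAP2 (0.43), PSMB8 (0.40), CIITA (0.32), TAP1 (0.29) and PSMB9 (0.19), named after their values were seen. Not all genes of antigen presentation lay above 0: B2M gave -0.13, and -0.20 on its other probe set. Another probe set of TAP2 gave -1.04 and another of CIITA -0.77. Coagulation genes had a median of -0.31 over 15, with 4 at least 2-fold lower (26.7%), among them the urokinase gene PLAU (-1.28). Protein S (PROS1, 1.26) and the thrombin receptor gene F2R (1.01) were at least 2-fold higher (13.3%).

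These lower lists stood beside the epithelial RNA of the control array, and keratinocytes are known to make IL1A, IL1RN, AREG and SERPINB2. At day 7 the summed epithelial level was 232 with beta-TCP and 189 in the control. ITGA6, also present on endothelium, made 80.7 and 29.2 of these sums in the same order. The medians of the epithelial lists at day 7 were 0.34 (basal layer), -0.28 (upper layers) and -0.19 (adhesion). On that pair the neutrophil list had a median of -0.73, the hypoxia list -0.69 and the interleukin-1 list -0.42. The immediate early list lay at -0.40, and the interferon and antigen presentation list at 0.00. The median of all genes at day 7 was -0.08. For the values of either day the part of epithelial RNA was not tested.

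Most proliferation and secretion genes lay above 0, as did 62.6% of all genes. Of 29 cell cycle genes 27 were above 0, with a median of 0.67, but only 1 was at least 2-fold higher (3.45%, against 4.51% of all genes). It was the spindle gene ASPM, with a level of 9.70 with beta-TCP and 3.78 in the control (1.16). The mitotic kinase partner gene CCNB2 gave 0.96. The replication clamp gene PCNA, named after its values were seen, had 178 with beta-TCP and 329 in the control (-0.88), and its other probe set gave -1.0. Genes of protein folding and secretion in the endoplasmic reticulum had a median of 0.57 over 25, with 3 at least 2-fold higher (12%) and 1 lower (4%, against 3.09% of all genes). The collagen chaperone genes FKBP10 (1.62) and SERPINH1 (1.21) led them, and the stress factor gene DDIT3 had 36.8 with beta-TCP and 127 in the control (-1.76). All 24 mitochondrial respiratory chain genes lay above 0, with a median of 0.54, and 22 genes commonly used as references had a median of 0.34 with 0 at least 2-fold different. Centred within the 10 classes of mean expression, these medians were 0.50 for the cell cycle, 0.20 for folding and secretion, 0.18 for the respiratory chain and 0.00 for the reference genes. On the same scale the proteoglycans gave 0.74, smooth muscle and pericyte genes 0.56, neutrophil genes -0.90 and immediate early genes -1.12. Across the 4 other scalings, no list median turned its sign except for cartilage, under all 4, and heat shock, under 1.

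Markers of other tissues that a mandibular core could hold were compared too. Skeletal muscle genes had a median of -0.28 over 9 genes, with ACTN2 at least 2-fold lower (-1.27). The summed level of the list was 15.1 with beta-TCP and 24.5 in the control, and 17 of its genes with beta-TCP and 13 in the control were under 1. Adipocyte genes had a median of -0.02 over 14, nerve genes 0.00 over 6 and erythroid genes -0.15 over 6. The cartilage list had a median of 0.13 over 9, yet aggrecan (ACAN), the main cartilage proteoglycan, had 5.34 with beta-TCP and 1.20 in the control (1.52), and COL9A1 had 2.04 with beta-TCP and 0.349 in the control (1.17).

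Probe sets of the same gene were the only repeat reading within the pair, and they measure spread between probe sets, not between specimens. Of the kept genes, 5185 had at least 2 probe sets above the filter, and the pooled SD of the difference between probe sets of a gene was 0.37. Of the 476 higher genes, 283 had several probe sets: every one had the same sign in 230 (81.3%), and every one was at least 2-fold higher in 59 (20.8%). Of the 326 lower genes, 150 had several: the sign was shared in 134 (89.3%), and every probe set was at least 2-fold lower in 55 (36.7%). Over all 5185 genes the sign was shared in 67.9%. Since a gene entered these counts through its brightest probe set, the shares for the called genes include the probe set that chose them. Among the list genes named above, TPM2, MCAM, TAP2 (-1.04), CIITA (-0.77), CADM1 (-0.02), COL16A1 (-0.16), CA2 (-0.48), JCHAIN (-0.18) and PROS1 (-0.17) were above 0 on the brightest probe set but below 0 on another, at the value given where one is. Much smaller values on another probe set were also found for PDGFRB (0.30), SCUBE3 (0.35), FBN1 (0.47), CXCL12 (0.53) and COL4A2 (0.61).

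Among the brightest genes, the probe set with the highest level differed less than the others of the same gene. Where the brightest probe set had a level of 400 to 2000, 1 of 42 genes was at least 2-fold different on it (2.38%), against 7 by the median of the other probe sets (16.7%). Between 200 and 400 the counts were 9 of 72 (12.5%) and 16 (22.2%), and between 100 and 200 the shares were near equal, at 14.1% and 14.7%. Below 100 the order was the other way. The shares were 12.1% and 7.57% at levels of 30 to 100, and 8.58% and 6.29% at 10 to 30. Below 10 they were 6.74% and 4.33% of 2702 genes. The bone collagen genes show this, and the genes in this paragraph were chosen after their values were seen. The other probe sets of COL1A1 gave 1.05 and 1.65 beside the -0.02 above. COL3A1, of granulation tissue collagen, gave 0.58 on its brightest probe set, with 810 with beta-TCP and 542 in the control, and 0.15 to 1.68 on the others. The mineral-binding matrix protein SPARC gave 0.69 on its brightest and 1.94 on its other probe set, and lumican (LUM) gave 0.45 and 1.18. For these 4 genes the value of the brightest probe set was smaller than that of most others, and the cause was not tested.

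**Figure D5:**
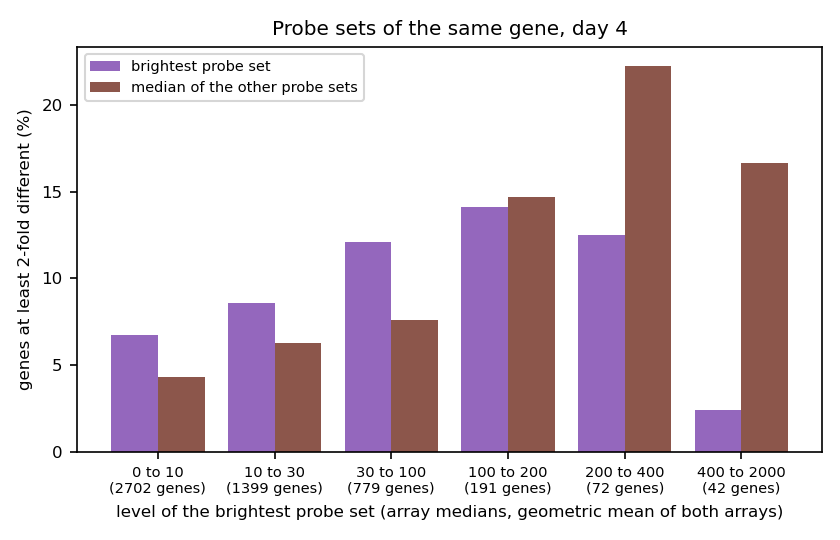
Share of genes at least 2-fold different in either direction at day 4, by the level of the gene's brightest probe set, read on that probe set or by the median of the gene's other probe sets. Over levels of 400 the brightest probe set gives 2.38% and the others 16.7%, and in each class below 100 the order is reversed.

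The later pairs, on other arrays, were set beside day 4. At day 7, 2.96% of all genes reached 2-fold higher and 3.43% 2-fold lower, and at day 14 these shares were 3.48% and 15.4%. Of the 476 genes higher at day 4, 307 (64.5%) were above 0 at day 7, where 41.8% of all genes were, and 72 (15.1%) were again at least 2-fold higher. At day 14, 120 (25.2%) were above 0, against 36.9% of all genes. Of the 476, 15 were then again at least 2-fold higher and 131 (27.5%) at least 2-fold lower. Of the 326 lower genes, 255 (78.2%) lay below 0 at day 7, against 58.2% of all genes, and 69 (21.2%) were at least 2-fold lower. At day 14 it was 226 (69.3%), against 63.1% of all genes, with 92 (28.2%) at least 2-fold lower and 16 higher. The day 14 values include the beta-TCP array that stood farthest from the day 4 arrays.

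Among the 30 highest genes, 28 lay above 0 at day 7, 15 of them at least 2-fold higher, and 11 lay above 0 at day 14. POSTN had a level of 75.4 with beta-TCP and 6.04 in the control at day 7, and 28.3 with beta-TCP and 64.3 in the control at day 14. IBSP had 251 with beta-TCP and 55.3 in the control at day 7, and 38.7 with beta-TCP and 13.1 in the control at day 14, and it was the 1 gene of the 30 at least 2-fold higher on all 3 days. LPL, at 20.0 with beta-TCP and 37.4 in the control at day 7, and COX4I2, at 19.4 with beta-TCP and 25.0 in the control, were the exceptions at day 7. Among the 30 lowest genes, 22 lay below 0 at day 7, 6 of them at least 2-fold lower, and 16 at day 14, 11 of them at least 2-fold lower. PTGS2 had 63.3 with beta-TCP and 154 in the control at day 7, and 12.7 with beta-TCP and 123 in the control at day 14. PPBP had 14.8 with beta-TCP and 46.3 in the control at day 7, and 0.226 with beta-TCP and 11.1 in the control at day 14. Epithelial genes did not share a direction at day 7: KRTDAP had 0.646 with beta-TCP and 1.05 in the control, while DSC2 had 4.90 with beta-TCP and 1.44 in the control.

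By lists, the osteoblast genes kept a positive median at day 7 (0.62) and day 14 (0.32), and the neutrophil (-0.73 and -0.81), hypoxia (-0.69 and -0.71) and interleukin-1 lists (-0.42 and -0.58) a negative one. Smooth muscle and pericyte genes lay at 0.08 at day 7 and -0.05 at day 14, and endothelial genes at -0.03 and 0.10. The cell cycle list lay at -0.35 at day 7 and -1.06 at day 14. Osteoclast genes lay at -0.75 at day 7 and 0.60 at day 14. The basal epithelial list, at -0.88 on day 4, lay at 0.34 on day 7 and 0.08 on day 14.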

How the data were processed

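Total RNA of mandible specimens was measured on Affymetrix canine arrays, 1 per group. The values the authors deposited for days 4 and 7 are a signal already divided by each array's median, with a lowest value of 0.01, and those deposited for day 14 are an undivided intensity. Both units were read from the values, and the sources used here do not name the software, algorithm or scaling. Each array was divided by its median over 42860 probe sets, which puts both kinds of deposited value on one scale, and log2(level + 1) was taken. Probe sets assigned to 1 gene (29254) were used, not those with several genes (439) or none (13167). Names came from RefSeq (assembly UU_Cfam_GSD_1.0) for 27680 of the 29254, otherwise from the platform annotation. In 90 pairs, 180 probe sets sharing a name stem and ending in _a_at and _at were left out. The probe set with the highest mean over the 6 arrays stood for a gene, and genes below the 40th percentile of the means were dropped. With 1 array per group, differences were described without a test, counted at 2-fold, and lists by their median and counts.

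Named were the 30 highest and 30 lowest genes (without day 4 values where another probe set has the opposite sign), for each of 39 lists (892 genes) up to 4 members in the direction of its median and up to 2 at least 2-fold the other way, and 13 epithelial and bone markers. Members and lists were chosen with earlier results of these data known. Alternatives were scaling, pseudocount, filter, choice of probe set and the epithelial lists. Promoter motifs, planned only if promoter sequences were given, were not analysed here. The number of arrays limits the precision. Python 3.11.15, pandas 2.3.3, numpy 2.4.6 and matplotlib 3.10.9 were used, and the calculation was tested on simulated data.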

Additional observations from a re-analysis of the deposited data

Results flagged for a closer look

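Several lists and genes lay on opposite sides of 0 at day 4 and on a later day. No difference between days was tested, with 1 array per group, and the day 14 values include the beta-TCP array farthest from the day 4 arrays. At day 14, the list medians, beta-TCP minus control, were -0.68 for small leucine-rich proteoglycans, -0.77 for matricellular glycoproteins, -0.59 for microfibril and crosslinking genes, -1.06 for the cell cycle and -1.06 for folding and secretion. The median of all genes on that day was -0.23. Of the 30 highest genes at day 4, 9 were at least 2-fold lower at day 14. They were ASPN (-2.62), POSTN (-1.16), LPL (-1.08), TNN (-3.21), CYBC1 (-1.33), CRABP1 (-1.28), RARRES2 (-1.90), RCN1 (-2.28) and COL6A1 (-2.85). Of the 30 lowest genes at day 4, 4 were at least 2-fold higher at day 7: LAMA3 (1.39), DSC2 (1.28), GJB2 (1.15) and CDO1 (1.49). At day 14, S100A2 (1.06) and CST6 (1.08) were at least 2-fold higher. Among 7036 probe sets above the filter with no gene assigned, which entered no comparison, 278 were at least 2-fold higher at day 4 (3.95%) and 210 lower (2.98%).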

How the results depend on the processing

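With 1 array per group no replicate could be left out. No paired analysis was possible because each group has 1 array. The counts of genes at least 2-fold different moved most. Against 476 higher and 326 lower, they were 310 and 491 with quantile normalization, 236 and 588 with division by the 90th percentile and 241 and 532 centred on the median of all genes. They were 991 and 620 with a pseudocount of 0.25, 140 and 162 with a pseudocount of 4, 312 and 161 with Cfa probe sets alone, and 190 and 575 centred in 10 classes of mean expression, an alternative chosen after seeing the data. Genes whose several probe sets were all at least 2-fold different numbered 59 and 55. With no replicates, a move of a list median was measured against the pooled SD between single probe sets of a gene, 0.37, which is wider than the spread of a median, so smaller moves are not shown to be stable. Folding and secretion moved from 0.57 to 0.20 and the respiratory chain from 0.54 to 0.18 in those classes. Medians at least 0.5 in size that moved by more than 0.37 were the osteoblast list to 0.068 and the interleukin-1 list to -1.41 with Cfa probe sets, the neutrophil list to -0.41 with Cfa probe sets and -0.44 with a pseudocount of 4, the suprabasal epithelial list to -0.35 with a pseudocount of 4 and -0.40 with no filter, the microfibril list to 0.27 with a pseudocount of 4, and the smooth muscle list to 0.56 centred in those classes. Of the values of the 30 highest and 30 lowest genes under the alternatives, 105 moved by more than this SD and none reversed. Other named genes were not recomputed one by one.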

Other observations

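Matrix-degrading enzymes and their inhibitors had a median difference of 0.41 over 19 genes at day 4. With beta-TCP, 2 were at least 2-fold higher (10.5%) and 1 lower (5.26%). Over all genes these shares were 4.51% and 3.09%. ADAMTS2, which trims the N-terminal propeptide of procollagen, had a level of 5.36 with beta-TCP and 1.38 in the control (1.42), and the membrane-type enzyme gene MMP16 gave 1.18. MMP7, an enzyme of epithelial cells, had 0.481 with beta-TCP and 2.64 in the control (-1.30). The complement list had a median of 0.34 over 16 genes: the protease gene C1R had 5.73 with beta-TCP and 1.84 in the control (1.25), on the side of C1S and opposite to C5AR1. All 9 genes of the EGF receptor list lay below 0, as did 3942 of all 10550 genes, and their median was -0.32. HBEGF, a ligand shed from macrophages and keratinocytes, had 3.28 with beta-TCP and 14.4 in the control (-1.84), beside AREG and EREG. Lysosomal genes had a median of -0.19 over 22, with 0 at least 2-fold different, and heat shock genes 0.40 over 15, where the co-chaperone gene DNAJB1 gave -1.17.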
